A study of Mus musculus with 75 samples.

Results

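RNA from the polysomal fraction (Pol) was set against RNA from the subpolysomal fraction (SubPol) of CD4 effector T cells that had been cultured without stimulation. These were 8 of the 75 libraries of the study and 8 of the 45 libraries of its sucrose gradient assay, which also include unfractionated RNA. They were 4 Pol and 4 SubPol libraries, chosen by their labels alone. Each of 4 mice gave 1 library of each fraction, so every Pol library has a SubPol partner from the same mouse and culture. The cells were CD4+CD25- cells of spleen and lymph nodes, and the mice are labelled with the genotype B6.SJL-PtprcaPepcb/BoyJ, though the series' design text calls them C57/B6. The stimulated and unfractionated libraries used for comparison carry the same genotype label. By its title the study asked how regulatory T cells act on the control of translation as CD4 T cells are activated, and the untreated cultures are its unactivated starting point.

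The groups set beside them were stimulated Pol and SubPol (cultures of the same 4 mice with anti-CD3/CD28 beads, which trigger the T cell receptor and its co-receptor) and untreated Input, the unfractionated RNA of the untreated cultures. A further pair of groups came from 5 other mice, of the RiboTag assay. They came from crossing 2 strains: B6.Cg-Tg(Cd4-cre)1Cwi/BfluJ, which makes Cre recombinase under Cd4 control, and B6N.129-Rpl22tm1.1Psam/J, in which Cre switches on a hemagglutinin-tagged copy of the ribosomal protein Rpl22. RNA precipitated with the tagged ribosomes (IP) was available next to Input from cells rested with IL7, a cytokine that keeps T cells alive without activating them, and Input also from cells stimulated with beads. How long the untreated cells were kept, which parts of the gradient went into Pol and SubPol, and the ages of the mice, are not given by the labels or other sources used here.

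In a sucrose gradient, messenger RNAs that carry several ribosomes sediment further than RNAs that are free or carry few ribosomes, so the Pol to SubPol ratio of a gene's RNA describes how its molecules are spread between heavily loaded and lightly loaded pools. Resting T cells are known for low overall protein synthesis, which rises on activation. The ratio is relative: values were scaled within each library, so neither the total amount of RNA in a fraction nor the share of all messenger RNA on polysomes can be seen. In these bulk samples, fewer cells of a type and less RNA per cell cannot be told apart. The files name genes only by Ensembl identifiers, and the tables used here pair none of them with a gene name, so genes are described as groups and a small number are named by identifier, without a role. For the same reason the labelled cell type was not checked against its marker genes.

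Pol libraries held 3028914 to 4481817 gene counts, and SubPol libraries 1961511 to 3011574. Genes with at least 1 count numbered 13532 to 13816 in Pol. They numbered 13556 to 13735 in the SubPol libraries of mice 1, 2 and 4, and 12851 in that of mouse 3. The SubPol library of mouse 3 also lay furthest from the other SubPol libraries in further measures. Dixon's test for a sample far from the others flagged it neither on genes detected nor on the principal components that follow. On the first principal component of log2 expression (40.7% of the variance) it had a score of -72.5, against -33.0 to -24.1 for the other SubPol libraries and 37.0 to 40.5 for Pol, and on the second (18.6%) it had 53.6, against -44.7 to -18.1 for the other SubPol libraries and 5.29 to 12.8 for Pol. Its correlation with the other SubPol libraries across genes was 0.884 to 0.908, while the other 3 correlated with each other at 0.902 to 0.933. Results are therefore also given without mouse 3 where they rest on it. As deposited, the 100 most abundant genes held 6.68% to 7.94% of the counts in Pol and 7.35% to 8.80% in SubPol. How duplicate reads were handled, which could limit the counts of abundant genes and so the size of their ratios, is not stated, and its part in these shares was not tested.

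A large minority of genes was distributed unequally between the fractions. Of 10740 genes tested, 2238 were higher in Pol than in SubPol (20.8% of the genes tested) and 2124 were lower in Pol (19.8% of the genes tested), with edgeR's quasi-likelihood method paired by mouse (n = 4 mice, two-sided, p adjusted after Benjamini-Hochberg and held to a threshold of 0.05). Most of these differences were small: 579 of the higher genes and 598 of the lower genes differed at least 2-fold, and 54 and 83 at least 4-fold. Without mouse 4, whose SubPol library had the fewest counts, 2713 genes passed the test in place of 4362, with 1364 higher and 1349 lower in Pol. Without mouse 3 the count was 4097.

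**Figure D1:**
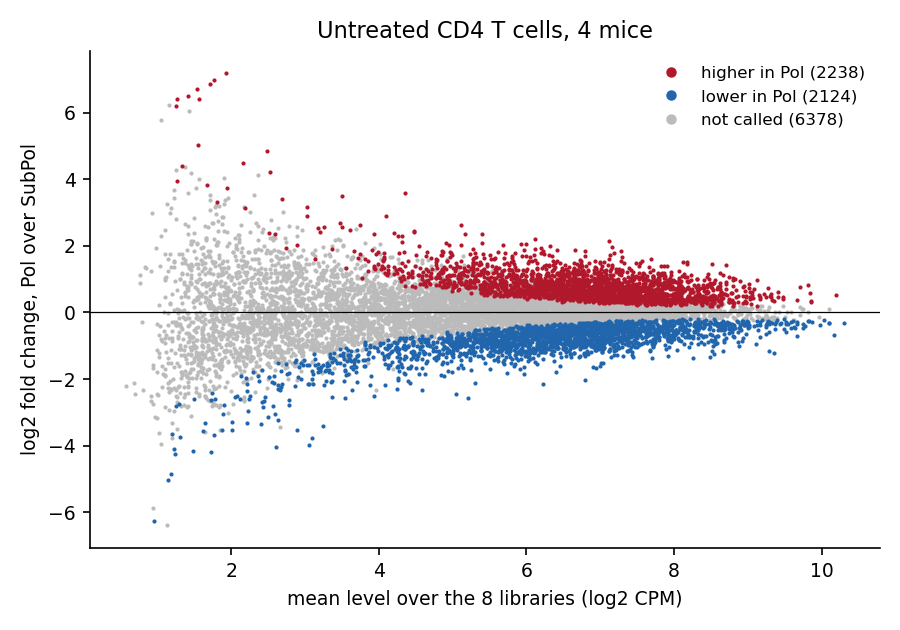
Each point is 1 gene of untreated cells, with its mean level over the 8 libraries (log2 CPM, the gene's counts scaled to a common library total) on the x axis and the fitted log2 fold change of Pol over SubPol on the y axis. Red points (2238) are higher and blue points (2124) lower in Pol at an adjusted p under 0.05, and the cloud narrows from left to right, so that among abundant genes small differences were called.

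The individual mice bear on how firmly these counts can be read. Of the 2238 genes called higher in Pol, 2195 had a ratio above 0 in all 4 mice. Of the 2124 genes called lower, 2113 had a ratio below 0 in all 4. All 4 Pol libraries lay above all 4 SubPol libraries for 1715 of the genes called higher and below them for 1705 of the genes called lower, beside the 20.8% and 19.8% of genes called. Over all 10740 genes tested the shares with no overlap between the fractions were 17.6% (Pol above) and 18.8% (Pol below). These are the values that entered the test, and they describe the calls without adding to them.

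The spread of the ratio across genes differed from mouse to mouse. The SD of the log2 ratio over the 10740 genes was 0.903 in mouse 1, 0.986 in mouse 2, 1.22 in mouse 3 and 0.860 in mouse 4. Mouse 3 had the widest spread, with 16.5% of genes at least 2-fold higher in Pol, against 9.98% to 11.9% in the other mice. For genes at least 2-fold lower in Pol the share was 13.1% in mouse 3 and 8.83% to 12.3% in the others. The gene by gene ratios of 2 mice correlated at r = 0.398 to 0.547 over the 6 pairs of mice. The sum of squares of log2 expression over the 8 libraries and these genes was split into parts. Of it, 37.9% lay between the fractions, 34.9% between mice and 27.2% in the difference between fractions that varied from mouse to mouse. There were more mice than fractions, so the last parts each have more degrees of freedom than the first. Noise alone adds more to a part with more of them, so the shares are not comparable sizes of effect. Pol libraries resembled each other (r = 0.949 to 0.969 across genes) more closely than SubPol libraries did (r = 0.884 to 0.933), and Pol libraries were also the deeper ones. Whether depth has a part in this was not tested.

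Among the 6947 well measured genes, those averaging 5 or more on the log2 CPM scale over the 8 libraries, 54.9% were called, 427 of them at least 2-fold higher and 306 at least 2-fold lower in Pol. The median standard error of their log2 fold change was 0.13, and the median 95% interval reached 0.31 to either side. For 68.5% of the well measured genes the interval lay wholly inside a 2-fold difference in either direction.

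Genes named by identifier were the extreme 2 in each direction among well measured genes with an adjusted p under 0.05 and the same sign in all 4 mice, a rule that 2017 genes met as higher and 1752 as lower in Pol. The highest ratio was that of ENSMUSG00000013629, with 68.5, 52.8, 56.7 and 45.2 CPM in Pol of mice 1 to 4, against 4.32, 7.52, 8.70 and 20.9 CPM in SubPol. Every Pol library lay above every SubPol library, and mouse 4 had the smallest gap. Its log2 fold change was 2.63 ± 0.44 (SE, n = 4 mice; edgeR adjusted p = 0.00271). In Input it had 51.9 to 105 CPM, so that SubPol held less of it than the unfractionated RNA did (log2 fold change -2.91 ± 0.42 for SubPol over Input, edgeR adjusted p = 0.00162), while Pol over Input was -0.36 ± 0.36 (edgeR adjusted p = 0.614).

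ENSMUSG00000033653 had 33.1, 61.1, 61.4 and 66.4 CPM in Pol of mice 1 to 4, against 27.6, 8.59, 1.66 and 14.3 CPM in SubPol. The groups did not overlap, but in mouse 1 the fractions were close, with a log2 ratio of 0.35, where the other mice had 2.20 to 4.75. Its log2 fold change was 2.36 ± 0.62 (SE, n = 4 mice; edgeR adjusted p = 0.0184). Without mouse 3, whose SubPol library held 4 counts of this gene, it was 1.76 (edgeR adjusted p = 0.0176). The call was lost without mouse 2 (adjusted p = 0.0777) and without mouse 4 (adjusted p = 0.0869). Over the alternative settings its edgeR or DESeq2 adjusted p ran between 0.000612 and 0.0869, with a log2 fold change of 1.76 to 3.17.

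On the other side, ENSMUSG00000092274 had 17.1, 1.39, 15.4 and 10.9 CPM in Pol of mice 1 to 4, against 99.3, 62.3, 51.4 and 39.8 CPM in SubPol. All 4 Pol libraries lay below all 4 SubPol libraries, and Pol of mouse 2 was the lowest. Its log2 fold change was -2.57 ± 0.51 (SE, n = 4 mice; edgeR adjusted p = 0.00566). Pol was lower than Input, which had 34.4 to 64.2 CPM (log2 fold change -2.17 ± 0.48, edgeR adjusted p = 0.0293), while SubPol over Input was 0.28 ± 0.43 (edgeR adjusted p = 0.705).

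ENSMUSG00000086290 was the most even of the 4 genes across mice. It had 8.15, 9.72, 14.5 and 8.25 CPM in Pol of mice 1 to 4, against 55.8, 54.1, 69.2 and 46.9 CPM in SubPol. The log2 ratio of the mice lay between -2.59 and -2.20, and the fitted log2 fold change was -2.45 ± 0.21 (SE, n = 4 mice; edgeR adjusted p = 0.000346). Input lay between the fractions, with 27.8 to 34.5 CPM in its 4 libraries. Pol was lower than Input (log2 fold change -1.66 ± 0.22, edgeR adjusted p = 0.00559) and SubPol was higher than Input (0.77 ± 0.20, edgeR adjusted p = 0.0205).

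**Figure D2:**
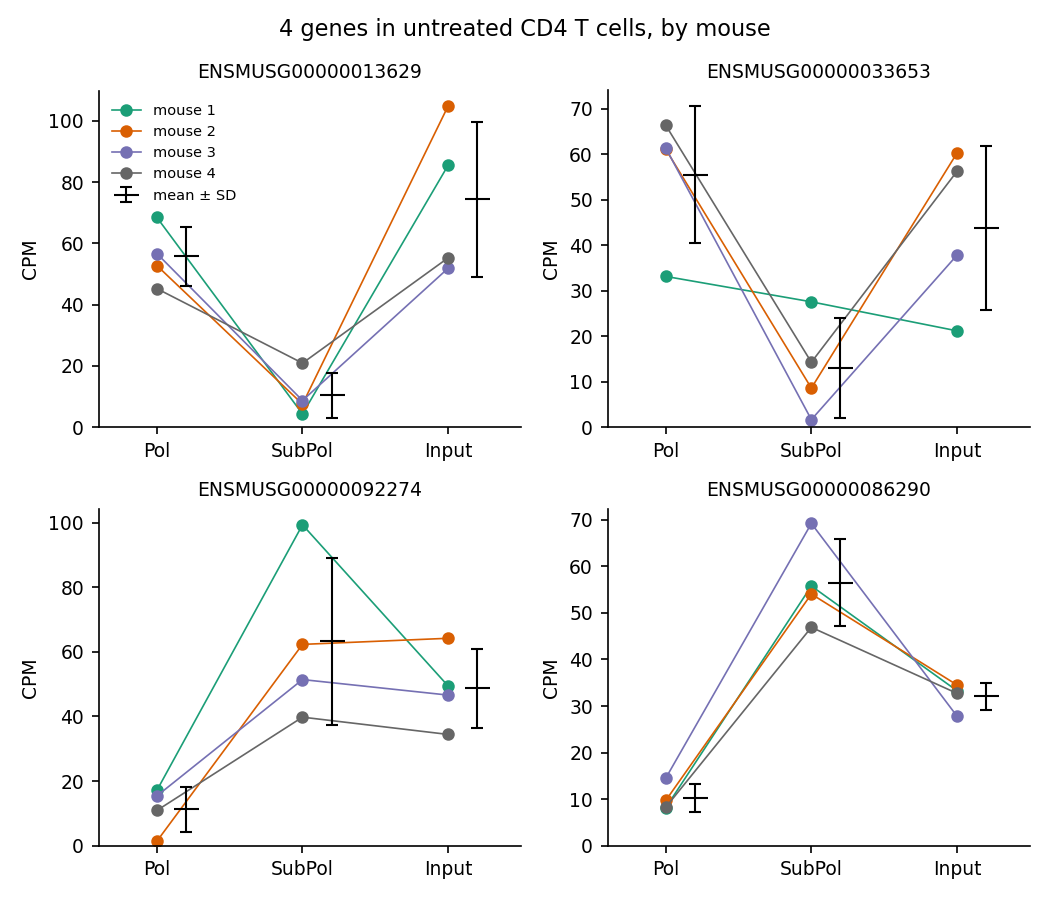
CPM of the 4 named genes in each library of untreated cells, for Pol, SubPol and Input from left to right, with 1 coloured line per mouse and the mean ± SD of 4 mice in black. For the upper pair every Pol point lies above every SubPol point, for the lower pair every Pol point lies below every SubPol point, and the fractions of mouse 1 are close for ENSMUSG00000033653 (33.1 CPM in Pol and 27.6 CPM in SubPol).

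The fractions were also set against Input, RNA of the same cultures that did not pass through the gradient. Input need not lie between the fractions: ENSMUSG00000013629 averaged 74.4 CPM in Input, above 55.8 CPM in Pol and 10.4 CPM in SubPol. Its difference between Pol and Input did not pass the test (edgeR adjusted p = 0.614), and in mouse 3 Pol (56.7 CPM) lay above Input (51.9 CPM). In stimulated cells this gene averaged 260 CPM in Input, 117 CPM in Pol and 56.9 CPM in SubPol. A difference from Input therefore does not by itself place a change in 1 fraction. SubPol was further from Input than Pol was in its counts of genes. In SubPol, 1106 genes were higher than in Input (9.79% of the 11302 genes tested) and 1335 were lower (11.8%). In Pol, 242 genes were higher than in Input (2.14%) and 475 were lower (4.2%), all by edgeR's quasi-likelihood test in a fit of the 12 untreated libraries with the mouse as a block. Without the block the Pol count was 391 in place of 717. The Pol count also depended on single mice: it was 43, 24 and 11 without mouse 1, 2 or 4, with 1, 0 and 0 of these genes higher in Pol. Without mouse 3 it was 619, and the balance turned to 337 higher and 282 lower in Pol. At an unadjusted p under 0.05, 1871 genes passed without mouse 2 and 1773 without mouse 4. For SubPol, 2441 genes passed in all, with 1404 without mouse 2 and 993 without mouse 4.

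Across the 11302 genes, Input correlated more closely with Pol (r = 0.937, 0.931, 0.944 and 0.951 in mice 1 to 4) than with SubPol (r = 0.918, 0.905, 0.894 and 0.938), in 4 of 4 mice. Input libraries held 3412403 to 4125314 counts, which is nearer to the depth of Pol than of SubPol, and the part of depth in this order was not tested. The genes called between Pol and SubPol had values on either side of Input. The 2238 genes higher in Pol had a median log2 fold change of 0.24 for Pol over Input and of -0.49 for SubPol over Input. For the 2124 genes lower in Pol the medians were -0.35 for Pol over Input and 0.42 for SubPol over Input, and over all 10740 genes they were -0.01 and -0.02. These comparisons share the Pol and SubPol libraries that chose the genes, so the directions follow from the choice and only the sizes are described.

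Genes with a higher level in Input were more often called, and those with the highest levels leaned towards Pol. The level in Input, as the mean log2(CPM + 1) over 4 mice, was used to sort the 10740 genes. Input libraries do not enter the Pol to SubPol ratio. They hold RNA of the same cultures, though, and correlated more closely with Pol than with SubPol. The sorting is thus not independent of the ratio, and its part in the lean was not tested. Among the 1637 genes with an Input level under 3, 1.65% were called higher and 5.01% lower in Pol. Among the 2449 genes with a level of 6 to 7 the shares were 27.8% higher and 26.6% lower. Among the 1882 genes with a level of 7 to 8 they were 40.0% higher and 23.1% lower, and among the 779 genes at 8 and over 41.1% and 29.8%. The median standard error of the log2 fold change was 0.86 in the lowest of these bins and 0.08 in the highest, so the rise in both shares moves with precision, and the part of precision in it was not tested.

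The lean towards Pol of genes abundant in Input was also present in the size of the ratio. The median log2 fold change was -0.24 under an Input level of 3, -0.10 at 3 to 4, 0.01 at 4 to 5, -0.00234 at 5 to 6, 0.03 at 6 to 7, 0.16 at 7 to 8 and 0.11 at 8 and over. In the bin of 7 to 8 the median log2 ratio was above 0 in every mouse, at 0.150, 0.138, 0.136 and 0.173 in mice 1 to 4. Under an Input level of 3 it was below 0 in every mouse, at -0.254, -0.268, -0.102 and -0.337. At 8 and over, mouse 3 had 0.0107 and the other mice 0.103 to 0.157. At an Input level of 7 to 8, 6.06% of genes were at least 2-fold higher and 1.97% at least 2-fold lower in Pol, whereas of those with a level of 3 to 4, 3.08% were at least 2-fold higher and 10.3% at least 2-fold lower. These medians are relative to a median of 0.03 over all genes tested. The filter used the Pol and SubPol libraries, so a gene low in Input could pass through the fraction where it was high. Of the calls, 51.3% were higher in Pol with this filter, 58.2% with none and 47.7% with at least 10 CPM in 4 libraries. The part of the filter in the medians of the lowest bins was not tested.

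**Figure D3:**
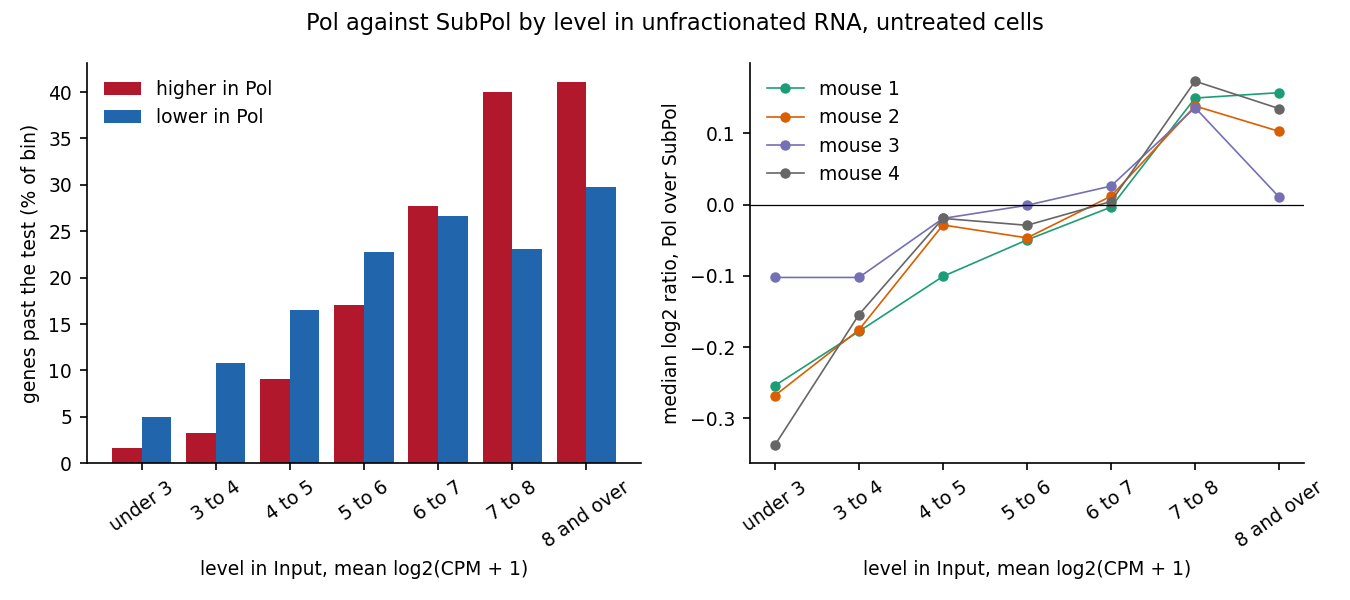
Genes of untreated cells in 7 bins of their level in Input, as mean log2(CPM + 1). On the left the y axis is the percentage of the bin's genes called higher (red) or lower (blue) in Pol than in SubPol, and on the right it is the median log2 ratio of Pol over SubPol in each of the 4 mice. The red bars rise to 40.0% and 41.1% in the top bins, and the medians of the bin of 7 to 8 lie between 0.136 and 0.173.

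Whether the distribution seen in untreated cells recurs after activation was read from the bead-stimulated cultures of the same 4 mice, whose libraries do not enter the untreated ratio. In stimulated cells, 3286 genes were higher in Pol than in SubPol (30.3% of 10845 genes tested) and 3065 were lower (28.3%), by the same paired edgeR test. The common biological coefficient of variation, the spread left once mouse and fraction are fitted, was 0.137 in the stimulated fit and 0.221 in the untreated fit. The larger number of stimulated calls thus goes with a smaller remaining spread, whose part in it was not tested. Of the genes tested in both, 3225 were higher in Pol in stimulated cells and 2215 in untreated cells, and 1812 were in both lists, which is 56.2% of the stimulated list and 81.8% of the untreated list. For genes lower in Pol the lists held 2874 and 2079 genes and shared 1648, which is 57.3% of the stimulated list and 79.3% of the untreated list. Calls in opposite directions were few: 10 genes were lower in Pol in stimulated and higher in untreated cells, and 35 the other way round.

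The sizes of the ratio ran in parallel as well. In stimulated cells 937 genes were called with 2-fold or more in favour of Pol. Of these, 670 were called higher and 1 lower in Pol in untreated cells, and their median log2 fold change was 1.21 in stimulated and 0.91 in untreated cells. In favour of SubPol it was 1053 genes, of which 611 were called lower and 0 higher in untreated cells by edgeR's test, with medians of -1.36 in stimulated and -0.97 in untreated cells. These genes were chosen by their stimulated values, which favours the larger median there. Over all 10114 genes tested in both, 2215 were called higher and 2079 lower in Pol in untreated cells. The medians of all these genes were 0.03 in stimulated and 0.04 in untreated cells. Genes are not independent replicates; across them the fold changes of the cultures, on the log2 scale, correlated at r = 0.717 (Spearman's rho 0.761), and at r = 0.841 over the 6271 genes well measured in both. The ratios of the single untreated mice correlated with the stimulated fold change at 0.558, 0.577, 0.495 and 0.708 for mice 1 to 4.

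The 4 named genes passed the edgeR test in the same direction in stimulated cells, where adjusted p was 0.000117 or lower. ENSMUSG00000013629 averaged 117 ± 32.1 CPM in stimulated Pol and 56.9 ± 20.8 CPM in stimulated SubPol (SD, n = 4 each; log2 fold change 1.22 ± 0.18, SE). Stimulated Input held 260 ± 39.2 CPM of it (SD, n = 4), more than either fraction. ENSMUSG00000033653 had 44.2 ± 9.22 CPM in stimulated Pol and 16.2 ± 5.54 CPM in stimulated SubPol, and ENSMUSG00000086290 had 7.90 ± 3.24 and 46.1 ± 10.5 CPM. ENSMUSG00000092274 had 1.75 ± 1.72 CPM in stimulated Pol and 23.3 ± 3.51 CPM in stimulated SubPol, with 6 counts or fewer in each Pol library. None of the 4 passed the edgeR test of the difference between stimulated and untreated ratios: the difference for ENSMUSG00000013629, the lowest p of the 4, was -1.40 ± 0.49 on the log2 scale (adjusted p = 0.122), with a 95% interval of -2.47 to -0.33.

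The difference between the ratios was tested directly as an interaction, in 1 edgeR fit of 16 libraries with the culture as a block. Of 11629 genes, 327 had a Pol to SubPol ratio that was higher in stimulated than in untreated cells (2.81%) and 159 had a lower one (1.37%). Without the block the total was 115 in place of 486. Single mice decided much of it: the total was 22, 16, 368 and 3 without mouse 1, 2, 3 or 4. At an unadjusted p under 0.05, 2467 genes passed.

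The 327 genes whose ratio was higher in stimulated cells had a median log2 ratio of 0.71 in stimulated and 0.04 in untreated cells. In that fit, 275 of them were higher and 11 lower in Pol in stimulated cells, while in untreated cells 111 were higher and 86 lower. The 159 genes whose ratio was lower in stimulated cells had medians of -0.81 in stimulated and 0.08 in untreated cells, with 8 higher and 117 lower in Pol in stimulated cells, and 55 higher and 42 lower in untreated cells. The untreated medians near 0 thus hold genes called in either direction. Over all 11629 genes tested in that fit, 2861 were higher and 2668 lower in Pol in stimulated cells. In untreated cells 2684 of all genes were higher and 2373 lower in Pol. The genes were chosen by this difference, and both ratios entered it, so these values are a description.

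**Figure D4:**
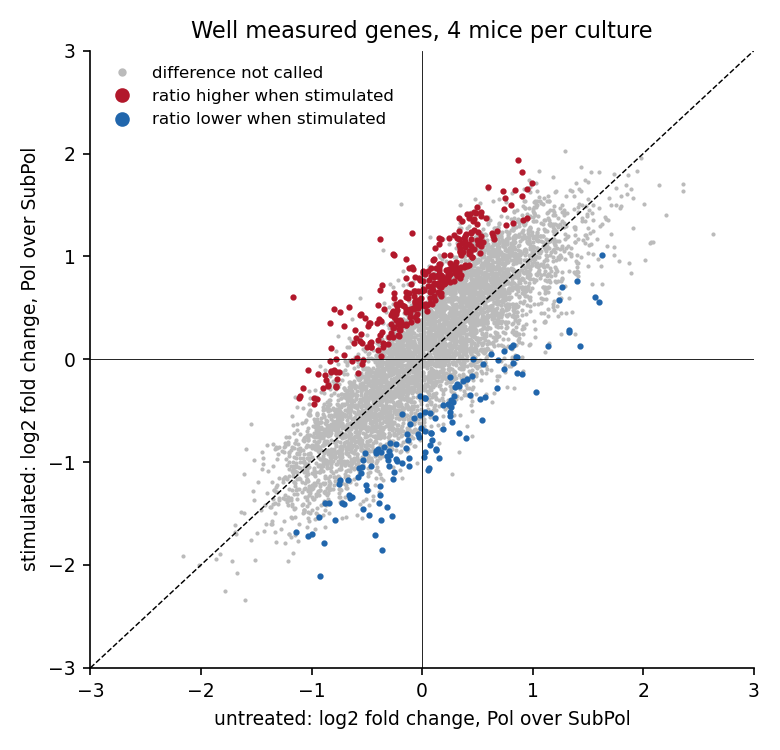
Each point is 1 gene well measured in both cultures (6271 genes), with the log2 fold change of Pol over SubPol in untreated cells on the x axis and in stimulated cells on the y axis. The dashed line marks equal values, and red and blue points are genes whose ratio was called higher or lower in stimulated cells. Most genes lie along the dashed line (r = 0.841), and the coloured points lie to either side of the middle of the cloud.

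The RiboTag assay gave values from other mice and another way of taking ribosome-bound RNA. In IL7-rested cells, 508 genes were higher in IP than in Input (4.94% of 10280 genes tested) and 641 were lower (6.24%), by a paired edgeR test (n = 5 mice). Without the block the total was 179 in place of 1149, and it was 496, 360, 641 and 529 without mouse 2, 3, 4 or 5. Untreated cells had 569 genes, at least 2-fold higher in Pol, that were also tested in RiboTag: 68 were higher (11.95%) and 10 lower (1.76%) in IP, their median log2 ratio of IP over Input was 0.12, and 70.3% of them lay above 0. The corresponding genes at least 2-fold lower in Pol numbered 553: 1 was higher and 112 (20.3%) were lower in IP, with a median of -0.25 and 22.1% above 0. Over all 9990 genes tested in both assays, 5.09% were higher and 6.34% lower in IP, the median was -0.00308 and 49.5% lay above 0.

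The order held in each of the 5 RiboTag mice. The median log2 ratio of IP over Input was 0.226, 0.227, 0.0891, 0.105 and 0.0310 in mice 1 to 5 for genes of untreated cells with 2-fold or more in favour of Pol, and -0.286, -0.367, -0.241, -0.202 and -0.206 for those with 2-fold or more in favour of SubPol. The groups did not overlap, and the medians of all genes lay between -0.00743 and 0.00607. The RiboTag medians were small beside the 2-fold difference that chose the genes, and IP is set against an Input that holds the precipitated RNA too, so the sizes of the ratios of the assays are not on 1 scale. Across the 9990 genes the log2 fold changes of the assays correlated at r = 0.292 (Spearman's rho 0.270). Of the named genes, ENSMUSG00000092274 was lower in IP than in Input (27.6 ± 10.2 CPM in IP and 80.9 ± 17.6 CPM in Input, SD, n = 5 each; log2 fold change -1.58 ± 0.24, edgeR adjusted p = 0.00382). The other 3 did not pass: ENSMUSG00000013629 had 0.53 ± 0.21 (edgeR adjusted p = 0.131), ENSMUSG00000033653 had 0.02 ± 0.27 (adjusted p = 0.972) and ENSMUSG00000086290 had -0.77 ± 0.25 (adjusted p = 0.0701).

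**Figure D5:**
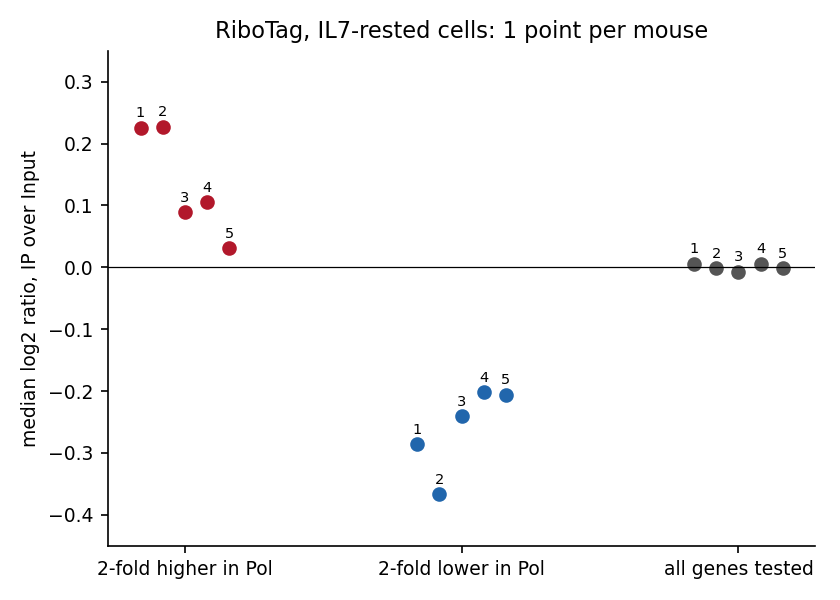
Median log2 ratio of IP over Input in IL7-rested RiboTag cells, for genes at least 2-fold higher in Pol (red), at least 2-fold lower in Pol (blue) and all genes tested (grey) in untreated cells. Each point is 1 of 5 RiboTag mice, numbered above it. The red points lie between 0.0310 and 0.227, the blue points between -0.367 and -0.202, and the grey points near 0.

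The RNA level of the same groups of genes on activation was read from RiboTag Input, stimulated against IL7-rested cells, which shares no library with the untreated fractions. Stimulation raised 3295 genes (30.7% of 10743 tested) and lowered 3259 (30.3%), by a paired edgeR test (n = 5 mice). Tested there were 573 genes that in untreated cells favoured Pol by 2-fold or more, of which 34.7% were higher and 27.7% lower in stimulated cells, with a median log2 fold change of 0.05. Among the 561 tested genes that favoured SubPol by 2-fold or more, 23.9% were higher and 27.1% lower, with a median of -0.02. Over the 10141 genes tested in both, the shares were 29.1% and 31.5% and the median was -0.04. Against all genes, the group favouring Pol by 2-fold or more had a larger share of higher genes and a smaller share of lower ones. The group favouring SubPol by 2-fold or more had smaller shares of both. The smaller share of lower genes did not extend to all genes called higher in Pol. Of these 2230 genes, 31.6% were higher and 35.6% lower in stimulated cells, with a median of -0.06. Of the 2085 genes called lower in Pol, 27.2% were higher and 33.7% lower, with a median of -0.06. None of these differences was tested. Of the named genes, ENSMUSG00000013629 was higher in stimulated cells (140 ± 36.3 CPM in stimulated and 38.0 ± 7.77 CPM in IL7-rested Input, SD, n = 5 each). Its log2 fold change was 1.83 ± 0.18 (edgeR adjusted p = 8.79e-06). ENSMUSG00000092274 was lower (42.7 ± 7.77 CPM in stimulated and 80.9 ± 17.6 CPM in IL7-rested Input), at -0.95 ± 0.20 (edgeR adjusted p = 0.00165). ENSMUSG00000033653, which favoured Pol, was also lower (31.7 ± 8.30 CPM in stimulated and 51.4 ± 24.6 CPM in IL7-rested Input), at -0.67 ± 0.26 (edgeR adjusted p = 0.0408). ENSMUSG00000086290 did not pass (0.31 ± 0.26, edgeR adjusted p = 0.322).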

How the data were processed

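For each assay the authors deposited a table of unnormalized read counts, whole numbers for 53465 Ensembl identifiers. The submitters' processing notes name the build GRCm38 and the tools SAMtools 1.2, FastQC 0.11.3, HTSeq 0.4.1 and Picard 1.134. The aligner, the strand setting and the handling of duplicate reads are not given by the sources used here. Libraries were made with SMART-Seq v4 and NexteraXT, per the labels' protocols, a kit without strand marking, so the reads of a gene and of an overlapping antisense gene cannot be separated. Unused were 16 columns of the RiboTag data that matched no sample.

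The fits used edgeR 4.0.16 in R 4.3.3, with filterByExpr (minimum count 10, minimum total 15), TMM scaling and robust quasi-likelihood fitting with the mouse, or for the interaction the culture, as a block. Tests were two-sided, and p-values were adjusted after Benjamini-Hochberg over every gene tested, at 0.05. The 10740 genes tested between Pol and SubPol held 99.7% of the counts of those libraries. CPM are per library total, and ratios of single mice are differences of log2 CPM with a prior count of 2. A standard error is the fold change (log2) divided by the root of its F statistic. Input levels use a pseudocount of 1. Alternatives included DESeq2 1.42.0, other scalings and filters, no block and each mouse left out. The fit was tested on simulated data with 200 changed genes per run, far fewer than were called in the real data. Among well measured genes it recovered 53.8% of the 1.5-fold and 91.9% of the 2-fold changes. Of all its calls, 6.65% were false.

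The labels give each mouse number as 1 mouse, so the numbers pair the samples. Deviations of Pol and SubPol from their group means correlated at 0.0575 to 0.231 within a mouse and -0.174 to 0.0149 between mice. Deviations from a group mean cancel over its mice, so positive values within mice push those between mice down. The lower values between mice are thus partly fixed in advance. Pairs of libraries within a fraction differed by a chi-square of 5.23 to 13.1 per degree of freedom, so none was treated as a copy.

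The groups compared, the named genes and the bins were chosen with earlier results of these data known. The stimulated comparison, both RiboTag comparisons and the fit without SubPol of mouse 3 were added after seeing the data. The named genes passed the test, averaged 5 or more in log2 CPM and had 1 sign in all 4 mice; the 2 largest rises and falls are printed. The planned lists of gene symbols were not analysed, since no symbols could be matched to the identifiers here.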

Additional observations from a re-analysis of the deposited data

Results flagged for a closer look

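Over 75 groups of 4 or 5 samples that the report rests on, 3 held a sample far from the others by Dixon's test, where chance gives about 1 in 20. At an equal depth of 1961511 counts per library, 12692 genes were detected in Pol of mouse 3, and 12920 to 12939 in Pol of mice 1, 2 and 4. In SubPol, where the test flagged no library on this measure, the count was 12647 in mouse 3 and 13121 to 13735 in the other mice. ENSMUSG00000033653 had 33.1 CPM in Pol of mouse 1, against 61.1 to 66.4 CPM in Pol of the other mice. The median log2 ratio of Pol over SubPol for genes with an Input level of 4 to 5 was -0.101 in mouse 1, against -0.0285 to -0.0192 in the others.

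The Pol to SubPol ratio differed between stimulated and untreated cells, by edgeR's interaction test, for 327 genes with a higher ratio and 159 with a lower ratio in stimulated cells.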

How the results depend on the processing

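The 4362 genes called between Pol and SubPol in untreated cells numbered 2713 to 4097 with 1 mouse left out, 3875 with no replicate block and 5210 with DESeq2. Upper-quartile scaling turned the balance to 1981 higher and 2357 lower in Pol, 45.7% of calls higher in place of 51.3%, as a scaling that shifts every gene alike can do. With the filter of 10 CPM in 4 libraries 2101 were higher and 2303 lower (47.7% higher), and with no filter 2456 and 1767 (58.2% higher). No called gene was called in the other direction under any of the 12 alternatives. The 486 genes of the interaction numbered 115 with no replicate block, 1333 with DESeq2, 824 with all 30 fraction libraries in the fit and 3 to 368 with 1 mouse left out. Pol against Input gave 391 genes with no replicate block and 11 to 619 with 1 mouse left out, in place of 717. SubPol against Input gave 993 to 2032 with 1 mouse left out, in place of 2441. IP against Input in IL7-rested cells gave 179 genes with no replicate block and 360 to 1157 with 1 mouse left out, in place of 1149. The fits with 1 mouse left out have fewer samples; the cause of the other changes was not tested. The block moved no other count by more than 1.5 times. The correlation of untreated with stimulated ratios was 0.616 with no filter on low counts and 0.609 with all 30 libraries in the fit, in place of 0.717. The lists of gene symbols could not be examined under other settings, since no symbols were matched. Depth limits rare RNAs: the median standard error was 0.86 under an Input level of 3.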
